A study of Mus musculus with 16 samples.

Results

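The odorant receptor genes of mouse chromosome 19 were followed through sorted olfactory mucosa cells of S100a5-tauGFP mice. Members were all probe sets placed on chromosome 19 by their identifier whose single gene symbol was an intact Olfr name, pseudogenes left out, with 1 probe set per gene. The rule found 61 receptors, of 1080 odorant receptor genes and 19505 genes in the table. The other 1019 odorant receptors lay on other chromosomes.

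Odorant receptors are G protein-coupled receptors of olfactory sensory neurons. A mature neuron transcribes one allele of one receptor gene, so in a bulk sample the level of a receptor follows the number of neurons that chose it and the RNA each of them holds. Here fewer such neurons and less RNA per neuron cannot be told apart. Ligand binding acts through the olfactory G protein and adenylyl cyclase 3 to open a cyclic nucleotide-gated channel. The mouse receptors sit in clusters, and those of chromosome 19 include Olfr1440, a receptor known for responding to musk odorants.

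The 4 groups were titled GFP+ and titled GFP- cells of mice given isoamyl acetate mixed with whiskey lactone (odor), and titled GFP+ and titled GFP- cells of mice given filtered air (vehicle). All 24 mice were C57BL/6, of both sexes and 7 to 12 weeks old, all carried the S100a5-tauGFP reporter, and each was kept alone in clean air for 40 h. Pulses of 10 s every 20 min began after 26 h. S100a5 is a calcium-binding protein whose gene is raised by activity in olfactory neurons, so the sort asks which receptors belong to neurons that were recently active. Each treatment had 4 pools of 3 mice, and both fractions of a pool came from the same mice, which gave 16 arrays in 4 groups of 4.

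The fraction named in the title was the opposite of the one named in the cell type tag in all 16 samples, and the titles were used. S100a5 went against the titles: in odor mice it averaged 15.27 ± 0.24 in titled GFP+ and 16.43 ± 0.27 in titled GFP- (SD, n = 4 each, deposited log2 scale). In vehicle mice without pool 3 it averaged 14.99 ± 0.45 in the libraries titled GFP+ and 16.35 ± 0.09 in those titled GFP- (SD, n = 3 each). If the tags were right, every fraction difference below would change sign. Vehicle pool 3 stood apart, with S100a5 at 16.37 in the library titled GFP+ and 14.99 in the library titled GFP-, so calls were made on all 16 arrays as labelled and on the 14 arrays without that pool, and a value on 14 arrays is named as such. Markers of other cells moved with the titled fractions: the mean of 6 neutrophil and monocyte markers ranged from 12.5 to 15.6 in odor titled GFP+ and from 4.47 to 6.48 in odor titled GFP-, and on 14 arrays 6 of 6 were higher in titled GFP+. Called higher there too were 3 of 4 immature neuron markers, 3 of 3 measured globose basal and progenitor markers, 4 of 5 sustentacular, 4 of 4 microvillar and 3 of 3 measured lymphoid markers, against 0 of 3 measured glial markers. Of 8 mature olfactory neuron markers 1 was called, lower, and Omp, the olfactory marker protein gene, averaged 18.52 in titled GFP+ and 18.54 in titled GFP- of odor mice. The part of these other cells in the receptor results was not tested.

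The receptors covered a wide range of levels. The median over the 61 members was 8.36 to 8.83 in the odor libraries titled GFP+ and 7.07 to 8.01 in those titled GFP-, on the deposited log2 scale. A member's mean over 16 arrays lay between 3.37 and 13.44, and 50 members (82.0%) lay above the median of the negative control probe sets (5.46), as did 89.0% of the other odorant receptors. Negative controls reached a 95th percentile of 9.79, so they marked no clean background. The 5 highest means belonged to Olfr1423, Olfr1427, Olfr1428, Olfr1425 and Olfr1420, and the 5 lowest to Olfr262, Olfr1457, Olfr1453, Olfr1465 and Olfr1441. Probes differ in brightness, so this order is not an order of transcript abundance.

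In odor mice the receptors split between the fractions in both directions. Olfr1495, Olfr1447, Olfr1446 and Olfr1437 were 5.74 to 7.18 log2 units higher in titled GFP+, while Olfr1448, Olfr1463 and Olfr1480 were 3.78 to 4.08 lower. On 16 arrays limma called 31 of 61 members (50.8%) at an adjusted p under 0.05, with 17 higher and 14 lower in titled GFP+. In the same fit it called 36.7% of the odorant receptors of other chromosomes and 6.97% of all genes. By direction, 17.9% of the other receptors and 4.57% of all genes were called higher, and 18.8% of the other receptors and 2.39% of all genes lower. The median absolute difference was 2.26 over the members, 1.31 over the other receptors and 0.21 over all genes, and whether the members differ from the other receptors was not tested.

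The 16-array count depended on single libraries. The median standard error over the members was 0.58 with vehicle pool 3 and 0.30 without it. With the pool of mice as a block the count of called members was 0. The count was also 0 without any one of 7 of the 8 odor libraries (23 without odor titled GFP+ replicate 4). On the 14 arrays limma called 42 members (68.9%), 24 higher and 18 lower, and all 31 were among them. The background there was 59.9% of the other receptors and 13.2% of all genes, with 26% of the other receptors and 8.59% of all genes higher and 33.9% and 4.59% lower. The pool block gave 43 calls on these arrays, and leaving out any one of the 14 gave 38 to 44. Of the 61 members, 41 (67.2%) had no overlap between the 4 odor libraries titled GFP+ and the 4 titled GFP-, against 58.8% of the other receptors and 16.5% of all genes.

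**Figure D1:**
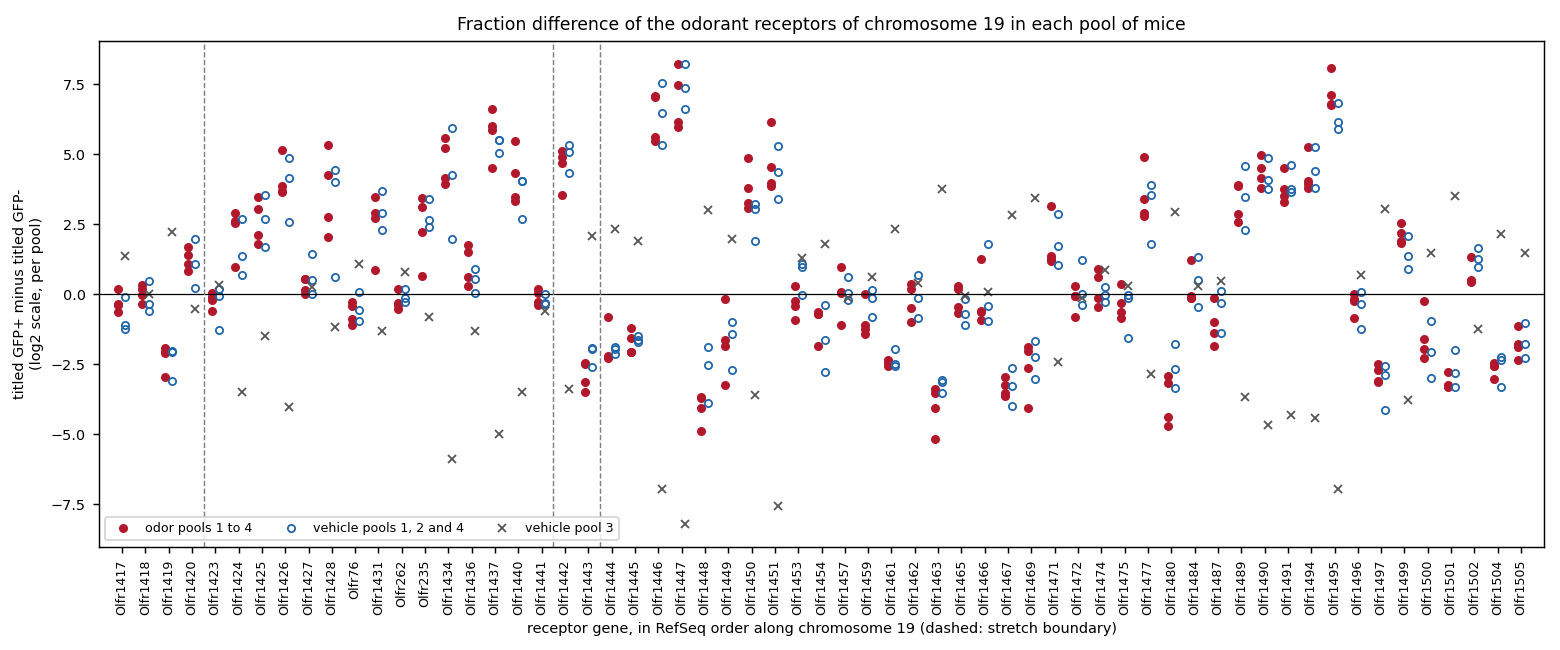
Fraction difference (titled GFP+ minus titled GFP-, log2 scale, vertical axis) of each of the 61 receptors in each pool, in RefSeq gene order (horizontal axis). Filled red points are odor pools, open blue points vehicle pools 1, 2 and 4, grey crosses vehicle pool 3, and dashed lines divide the 4 stretches. At all 42 called receptors the cross lies on the far side of 0 from the mean of the odor pools.

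In vehicle mice the same comparison gave 0 calls on 16 arrays, over the members and over all genes (0%). At an unadjusted p under 0.05, 14 members passed. In that comparison 1 member, Olfr1465, had no overlap between 4 libraries and 4 (1.64%), against 1.28% of the other receptors and 2.94% of all genes. Without pool 3 limma called 40 members (65.6%), 24 higher and 16 lower in titled GFP+. It called 52.5% of the other receptors (22.5% higher, 30% lower) and 11.2% of all genes (7.86% higher, 3.32% lower). Members without overlap between 3 libraries and 3 again numbered 41, against 64.2% of the other receptors and 27.6% of all genes. Leaving out single libraries gave 36 to 41 calls on the 14 arrays.

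Odor and vehicle mice showed the same receptors on the same side. On 14 arrays 38 members were called in both treatments, all in one direction, 23 higher and 15 lower in titled GFP+. They made up 90.5% of the odor calls and 95% of the vehicle calls. Of the other receptors, 59.9% were called in odor mice and 52.5% in vehicle mice on 14 arrays. The share of them, or of all genes, called in both was not counted. The overlap is thus not read as particular to the members. On 16 arrays no member was called in vehicle mice, so no call was shared there. Only in odor mice were Olfr1436, Olfr1449, Olfr1459 and Olfr1487 called, and only in vehicle mice Olfr1454 and Olfr1502, but none of these 6 passed the test of the difference between treatments. Another 17 members were called in neither. Across the 61 members the fraction differences of odor and vehicle mice had a Pearson r of 0.987, and across the 1019 other receptors 0.976; the genes of a library share its cells and are not replicates.

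**Figure D2:**
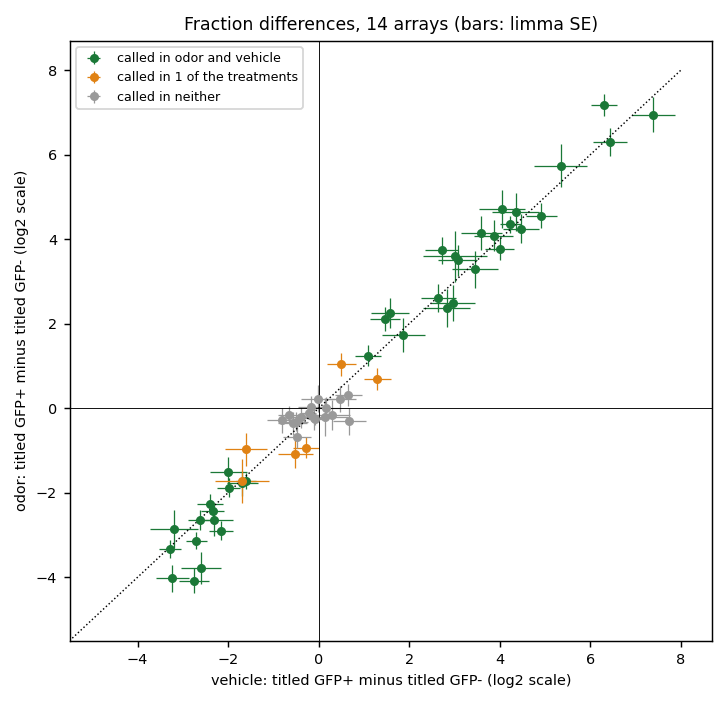
Fraction difference in odor mice (vertical axis) against that in vehicle mice without pool 3 (horizontal axis), both titled GFP+ minus titled GFP- on the log2 scale, 1 point per receptor with limma standard errors. Green points are the 38 receptors called in both treatments, orange the 6 called in 1, grey the 17 called in neither, and the dotted line marks equal differences.

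Olfr1495 had the largest fraction difference in odor mice. It measured 11.28, 11.89, 11.17 and 11.10 in odor titled GFP+ against 4.18, 3.81, 4.40 and 4.31 in odor titled GFP-. Vehicle mice had 11.19, 11.85, 5.01 and 11.57 in titled GFP+ and 5.02, 5.93, 11.97 and 4.73 in titled GFP-. The odor fractions were far apart, and the vehicle fractions were too, save for pool 3, where the library titled GFP- was high and the one titled GFP+ low. The odor difference was 7.18 ± 1.49 (SE) on 16 arrays (adjusted p = 0.0286) and 7.18 ± 0.25 on 14 (adjusted p = 5.25e-11). The vehicle difference was 2.99 on 16 arrays (adjusted p = 0.537) and 6.31 ± 0.29 without pool 3 (adjusted p = 2.09e-09).

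Olfr1446 and Olfr1447, neighbours on the chromosome, came next. Olfr1447 measured 12.70, 13.46, 14.40 and 14.53 in odor titled GFP+ against 6.55, 7.50, 6.93 and 6.30 in odor titled GFP-. In vehicle mice it had 13.38, 13.84, 6.18 and 13.80 in titled GFP+ and 6.03, 7.23, 14.37 and 5.58 in titled GFP-. Groups did not overlap in odor mice, and in vehicle mice pool 3 alone crossed over. Olfr1446 measured 10.93, 11.38, 11.98 and 12.18 in odor titled GFP+ against 5.47, 5.75, 4.89 and 5.15 in odor titled GFP-. Its vehicle values were 11.60, 12.25, 4.26 and 12.22 in titled GFP+ and 6.29, 5.77, 11.21 and 4.70 in titled GFP-. In both receptors titled GFP+ was the higher library in 7 of 8 pools. Their odor differences were 6.95 ± 1.78 and 6.30 ± 1.54 on 16 arrays (SE, adjusted p = 0.0343 and 0.0315), and without pool 3 the vehicle differences were 7.39 ± 0.47 and 6.44 ± 0.39. Further members above 4 in odor mice were Olfr1437 (5.74), Olfr1434 (4.72), Olfr1451 (4.64), Olfr1442 (4.56), Olfr1490 (4.36), Olfr1494 (4.25), Olfr1440 (4.15) and Olfr1426 (4.09). Of these Olfr1451 missed the threshold on 16 arrays (adjusted p = 0.0603) and passed on 14 (adjusted p = 2.59e-06).

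The receptors that were lower in titled GFP+ included Olfr1448. It measured 8.46, 8.68, 7.48 and 8.48 in odor titled GFP+ against 12.17, 12.76, 12.35 and 12.14 in odor titled GFP-. Vehicle mice had 8.30, 9.54, 12.37 and 9.15 in titled GFP+ and 12.18, 11.41, 9.35 and 11.67 in titled GFP-. The fractions stood apart in odor mice, and the crossing of pool 3 was again the exception in vehicle mice. Olfr1463 measured 8.30, 8.46, 8.23 and 9.67 in odor titled GFP+ against 12.34, 11.99, 13.39 and 13.06 in odor titled GFP-. For the vehicle libraries it was 8.45, 8.89, 12.60 and 8.77 in titled GFP+ and 11.97, 11.94, 8.84 and 11.89 in titled GFP-. Replicate 4 was the highest of the odor titled GFP+ libraries and still below all odor titled GFP- ones. Olfr1480 measured 6.58, 5.88, 6.48 and 5.72 in odor titled GFP+ against 9.74, 10.57, 9.39 and 10.10 in odor titled GFP-. In vehicle mice Olfr1480 had 6.14, 7.51, 9.08 and 5.61 in titled GFP+ and 9.47, 9.29, 6.13 and 8.27 in titled GFP-. The fractions of Olfr1480 did not overlap in odor mice. The odor differences were -4.08 ± 0.71 for Olfr1448, -4.03 ± 0.84 for Olfr1463 and -3.78 ± 0.72 for Olfr1480 (SE, 16 arrays, adjusted p = 0.0286 each). Without pool 3 the vehicle differences were -2.75 ± 0.34, -3.23 ± 0.37 and -2.59 ± 0.44 in the same order. Olfr1467 (-3.33), Olfr1501 (-3.14), Olfr1443 (-2.90), Olfr1497 (-2.86) and Olfr1504 (-2.65) followed in odor mice. Among the 8 lowest in vehicle mice without pool 3 stood Olfr1419 (-2.40) in the place of Olfr1443 (-2.15).

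Olfr1440, the musk receptor, was on the higher side. It measured 10.84, 11.30, 11.90 and 11.44 in odor titled GFP+ against 7.51, 7.82, 7.57 and 5.97 in odor titled GFP-. Vehicle mice gave 11.12, 11.43, 8.13 and 10.79 in titled GFP+ and 8.42, 7.38, 11.61 and 6.76 in titled GFP-. Replicate 4 was the lowest of the odor titled GFP- libraries, and all 4 lay below every odor titled GFP+ library. Its odor difference was 4.15 ± 0.88 (SE, adjusted p = 0.0286), and its vehicle difference without pool 3 was 3.59 ± 0.46 (adjusted p = 4.71e-05). Neither isoamyl acetate nor whiskey lactone is a musk, and whether Olfr1440 responds to either was not tested. Between treatments Olfr1440 differed by 0.25 ± 0.43 in titled GFP+ and -0.30 ± 0.43 in titled GFP- on 14 arrays. With pool 3 these differences were 1.00 and -1.33, and none of the 4 values was called.

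Olfr1423 had the highest mean and showed no such split. It measured 13.22, 13.24, 13.34 and 13.85 in odor titled GFP+ against 13.16, 13.44, 13.95 and 13.96 in odor titled GFP-. Vehicle mice gave 12.66, 12.94, 13.93 and 13.49 in titled GFP+ and 13.92, 13.00, 13.59 and 13.31 in titled GFP-. The fractions overlapped in both treatments, with an odor difference of -0.21 ± 0.25 (14 arrays, adjusted p = 0.677). The 19 members not called in odor mice on 14 arrays had differences from -0.97 (Olfr1454) to 0.69 (Olfr1502).

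**Figure D3:**
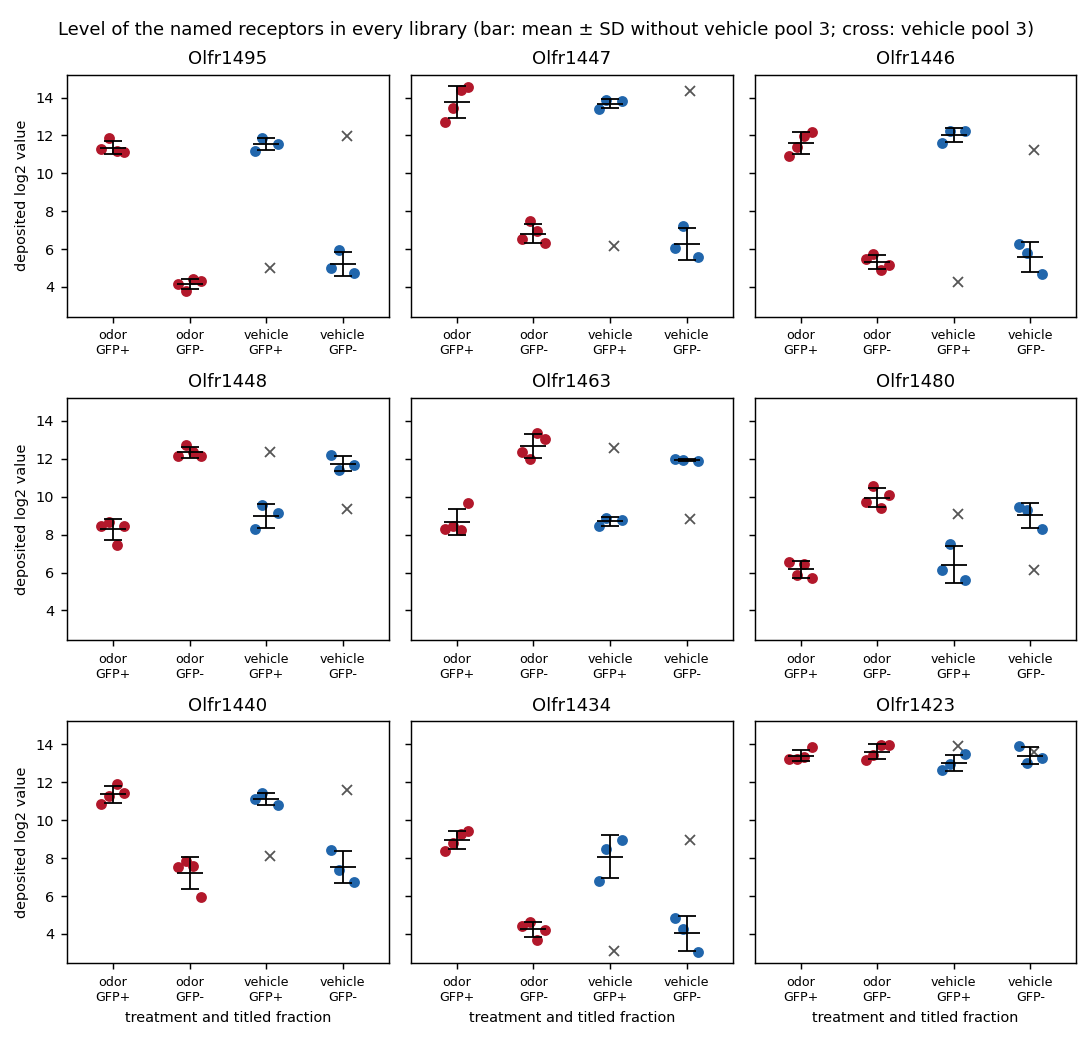
Deposited log2 value (vertical axis) of 9 receptors in each library, by treatment and titled fraction (horizontal axis). Points are libraries, bars the mean ± SD without vehicle pool 3, and crosses the 2 libraries of that pool. In the 8 receptors with a fraction difference the crosses lie with the other fraction, and in Olfr1423 all groups overlap.

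Agreement between pools was examined pool by pool. Of the 42 members called in odor mice on 14 arrays, all 42 had the sign of the odor mean in odor pools 1, 2 and 3. In odor pool 4 it was 41. These members were called on the same odor libraries, so the agreement of the odor pools was largely built in. In vehicle pools 1, 2 and 4 the counts were 42, 42 and 40. The exceptions were Olfr1459 in odor pool 4 and vehicle pool 4, and Olfr1487 in vehicle pool 4. In vehicle pool 3 all 42 had the opposite sign, and over the 61 members its differences had a Pearson r of -0.961 with the odor mean, where the other vehicle pools had 0.953 to 0.976. Among the 43 members with 1 sign in the other 7 pools, 42 were turned in vehicle pool 3. Olfr1427, the exception, differed by 0.01 to 1.45 and was not called in either treatment. These sign counts were not made over the other receptors or all genes. The mean of the neutrophil and monocyte markers was turned in vehicle pool 3 as well, at 4.24 in titled GFP+ and 13.29 in titled GFP-. In the other vehicle pools it was 15.18 to 15.91 in titled GFP+ and 5.88 to 7.72 in titled GFP-.

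The members were also read in their order along the chromosome. In the RefSeq order of assembly GRCm38.p6 the members form 4 stretches, parted by other protein-coding genes such as Patl1, Osbp, Cntf and Glyat. The 15 members between Olfr1423 and Olfr1441 held 10 receptors called higher in titled GFP+ of odor mice on 14 arrays and 0 called lower, with 5 not called, and in vehicle mice 9 and 0. The median difference of these 15 was 2.37 in odor mice and 2.64 in vehicle mice. The 40 members between Olfr1444 and Olfr1505 were mixed, with 12 higher, 16 lower and 12 not called in odor mice, and 13 higher and 14 lower in vehicle mice. Olfr1417 to Olfr1420 held 1 higher (Olfr1420, 1.25) and 1 lower (Olfr1419, -2.26) of 4, and the pair Olfr1442 and Olfr1443 went opposite ways (4.56 and -2.90). The stretches were read off after the values were known and were not tested.

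Runs of neighbours were found within the stretches. Olfr235, Olfr1434, Olfr1436, Olfr1437 and Olfr1440 lie one after the other, and all 5 were called higher (1.04 to 5.74). Olfr1489, Olfr1490, Olfr1491, Olfr1494 and Olfr1495 form another run of 5 called higher (3.29 to 7.18). The longest run on the lower side was 8 members between Olfr1459 and Olfr1469, of which 5 were called. Over all 57 adjacent pairs, 27 had differences of the same direction. In 28 pairs both members were called, 18 in the same direction and 10 in opposite directions, and the correlation of a member's odor difference with that of the next was 0.198. Some adjacent called receptors thus had opposite differences, as did Olfr1447 (6.95) and Olfr1448 (-4.08), or Olfr1449 (-1.72) and Olfr1450 (3.74). More of the called pairs went the same way, among them Olfr1446 and Olfr1447, which may share probes. Whether neighbours agree more often than other called pairs was not tested.

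The stretch with no receptor called lower was graded. Olfr1428 averaged 13.80 ± 0.48 in odor titled GFP+ and 10.21 ± 1.27 in odor titled GFP- (SD, n = 4 each), and Olfr1425 averaged 13.37 ± 0.41 and 10.77 ± 0.59 in the same order. Their odor differences were 3.59 and 2.61, and their vehicle differences without pool 3 were 3.02 and 2.64. Olfr1431 (2.49 in odor mice and 2.96 in vehicle mice without pool 3), Olfr235 (2.37 and 2.83) and Olfr1424 (2.26 and 1.58) lay in the middle. Those 3 missed the threshold on 16 arrays, with adjusted p of 0.0509, 0.0744 and 0.0538, and passed on 14. Olfr1436 was the smallest of the called members of the stretch, at 1.04 and 0.50. The 5 not called were Olfr1423, Olfr1427 (0.32), Olfr76 (-0.67), Olfr262 (-0.25) and Olfr1441 (-0.10). Olfr262 and Olfr1441 were among the 5 members with the lowest means, below the median of the negative controls.

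In the runs of the long stretch the spread within a group varied between members. Olfr1490 averaged 8.32 ± 0.21 in odor titled GFP+ and 3.96 ± 0.34 in odor titled GFP-, and Olfr1494 averaged 11.68 ± 0.19 and 7.43 ± 0.51 in the same order (SD, n = 4 each). Olfr1489 averaged 8.87 ± 0.35 in odor titled GFP+ and spread more widely in odor titled GFP-, at 5.58 ± 1.01. Olfr1491 differed by 3.78 ± 0.28 and Olfr1489 by 3.29 ± 0.44 (SE, 14 arrays). In vehicle mice without pool 3 the 4 differences were 4.23 for Olfr1490, 4.47 for Olfr1494, 4.00 for Olfr1491 and 3.46 for Olfr1489. On the lower side Olfr1467 averaged 9.67 ± 0.22 in odor titled GFP+ and 13.00 ± 0.30 in odor titled GFP-, and Olfr1461 averaged 6.96 ± 0.35 and 9.39 ± 0.38 in the same order. Olfr1469 averaged 7.58 ± 0.70 in odor titled GFP+ and 10.23 ± 0.37 in odor titled GFP-, a difference of -2.65 ± 0.37 (SE, 14 arrays). Between these called members lay Olfr1462 (-0.22), Olfr1465 (-0.16) and Olfr1466 (-0.22), none of which was called in either treatment.

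Sequence before the gene start was available for 58 of the 61 members, from a RefSeq promoter table of GRCm38.p6. In 50 of them the gene model begins at the ATG, so the window is not known to hold a promoter. For 8 members the model begins before the coding start, and their 250 bases before the start were searched on both strands for TAATTA and TAATGA, cores of the homeodomain type that Lhx2 and Emx2 bind, and for CCCNNGGG, the core of the site of the Ebf factors. These proteins act in receptor gene choice. The motifs do not overlap in these letters. TAATTA was in 2 of the 8 windows (Olfr1434 and Olfr1496), in 17.8% of 259 odorant receptor windows of this kind and in 4.84% of all 32851 windows. TAATGA was in 3 of the 8 (Olfr1426, Olfr1437 and Olfr1477), 31.7% of the receptor windows and 8.59% of all. CCCNNGGG was in 1 of the 8 (Olfr1443), 7.34% of the receptor windows and 11.8% of all. A match is a string of letters and not a shown site.

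Shown are the windows of 4 receptors called higher that hold a homeodomain core, and of Olfr1443, called lower, which holds the Ebf core. They are chr19:12091848-12092097 on the minus strand for Olfr1426, chr19:12279604-12279853 on the plus strand for Olfr1434, chr19:12325067-12325316 on the minus strand for Olfr1437, chr19:13500296-13500545 on the plus strand for Olfr1477 and chr19:12677916-12678165 on the plus strand for Olfr1443. Each is written 5′ to 3′ along the gene's strand and ends at the base before the gene start, with the motif or its reverse complement in capitals.
Olfr1426: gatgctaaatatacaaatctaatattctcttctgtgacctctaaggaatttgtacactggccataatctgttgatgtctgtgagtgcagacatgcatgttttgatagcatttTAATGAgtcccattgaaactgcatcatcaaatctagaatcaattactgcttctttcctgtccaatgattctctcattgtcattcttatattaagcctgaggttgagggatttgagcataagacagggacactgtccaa
Olfr1434: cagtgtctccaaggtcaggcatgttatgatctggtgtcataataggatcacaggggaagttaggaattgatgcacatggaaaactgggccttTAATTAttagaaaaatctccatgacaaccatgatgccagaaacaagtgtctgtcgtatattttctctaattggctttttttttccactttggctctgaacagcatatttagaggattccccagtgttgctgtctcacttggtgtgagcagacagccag
Olfr1437: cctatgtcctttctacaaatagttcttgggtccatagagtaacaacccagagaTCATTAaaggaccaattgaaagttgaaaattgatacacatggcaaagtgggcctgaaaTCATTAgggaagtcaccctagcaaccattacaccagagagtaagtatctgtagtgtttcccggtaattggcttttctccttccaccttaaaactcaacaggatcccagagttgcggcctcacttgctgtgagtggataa
Olfr1477: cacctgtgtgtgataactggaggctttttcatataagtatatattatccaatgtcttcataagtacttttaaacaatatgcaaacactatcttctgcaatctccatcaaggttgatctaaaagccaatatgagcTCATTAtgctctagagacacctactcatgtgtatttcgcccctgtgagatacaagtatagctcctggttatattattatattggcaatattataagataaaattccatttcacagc
Olfr1443: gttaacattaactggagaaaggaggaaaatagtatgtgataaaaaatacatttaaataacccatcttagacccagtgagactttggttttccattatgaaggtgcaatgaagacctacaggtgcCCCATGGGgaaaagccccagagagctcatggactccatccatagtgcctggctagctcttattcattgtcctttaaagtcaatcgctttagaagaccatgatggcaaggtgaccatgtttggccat

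The odor differences between fractions were 4.09 for Olfr1426, 4.72 for Olfr1434, 5.74 for Olfr1437, 3.50 for Olfr1477 and -2.90 for Olfr1443. Olfr1496, which also holds TAATTA, was not called (-0.32), and Olfr1442, called higher (4.56), and Olfr1419, called lower (-2.26), hold none of the 3 motifs. Aligned over the table's whole windows, which run past the gene start and so beyond the bases shown, Olfr1434 and Olfr1437 were 63.9% identical, against a median of 52.1% over all 1653 pairs of members.

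Near-identical neighbours bear on how far a probe set can be read as 1 gene. Windows of 13 pairs of members were at least 70% identical, aligned over the whole window of the table, which runs past the gene start and for genes modelled from the ATG takes in coding sequence. In 5 of the 13 both members were called, and all 5 went the same way. The most alike pair was Olfr1471 and Olfr1474 (95.7% identical), with odor differences of 1.74 and 0.22, of which the first was called. Olfr1501 and Olfr1504 (93.4%) were both lower (-3.14 and -2.65), Olfr1446 and Olfr1447 (92.1%) both higher, and Olfr1480 and Olfr1487 (91.7%) both lower (-3.78 and -1.09). Olfr1502 and Olfr1505 (89.7%) had 0.69, not called, and -1.77. Whether the differences of a pair differ was not tested, and probes shared by copies would draw the values of a pair together, so these receptors are uncertain as single genes.

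**Figure D4:**
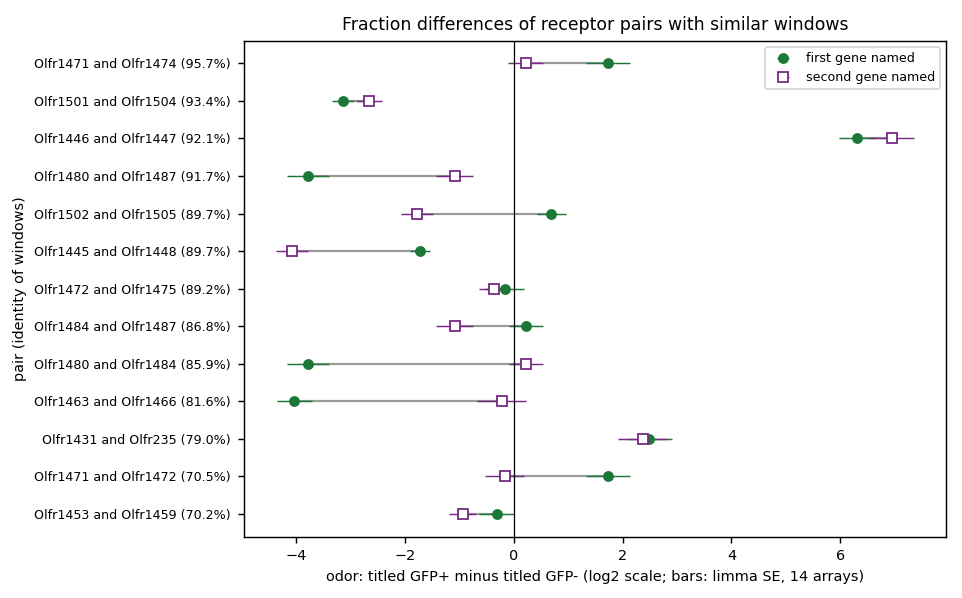
Odor fraction difference (titled GFP+ minus titled GFP-, log2 scale, horizontal axis) of both members of the 13 pairs whose windows are at least 70% identical, most alike at the top. Circles are the first gene named, squares the second, and bars limma standard errors on 14 arrays. Some pairs lie together, as Olfr1446 and Olfr1447, and others apart, as Olfr1463 and Olfr1466.

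An effect of the mixture itself was looked for in the comparisons of odor against vehicle, first within each titled fraction. In titled GFP+ limma called 0 of 61 members on 16 arrays and 0 on 14, with 2 and 2 at an unadjusted p under 0.05. Of the 1019 other receptors 43 and 62 passed that unadjusted limit, and of all 19505 genes 908 and 1518. Of all genes limma called 0% and 0.0359%, and of the other receptors 0% in both. The differences on 14 arrays ran from -0.72 (Olfr1448) to 1.08 (Olfr1437), with a median standard error of 0.32. Olfr1448 lay between 7.48 and 8.68 in odor mice and between 8.30 and 9.54 in vehicle mice without pool 3, so the groups overlapped, with a difference of -0.72 ± 0.32 (SE, adjusted p = 0.606). Olfr1437 averaged 10.34 ± 0.56 in odor mice and 9.27 ± 0.29 in those vehicle mice, a difference of 1.08 ± 0.54 (SE, adjusted p = 0.683). The other members with the smallest p were Olfr1443 (-0.53), Olfr1454 (0.89), Olfr1502 (-0.54), and on 16 arrays Olfr1453 (-0.83), Olfr1434 (2.13), Olfr1436 (0.61) and Olfr1424 (1.14), with adjusted p of 0.636 and above.

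In titled GFP- the call count was likewise 0 of 61 on 16 and on 14 arrays, with 1 and 4 members at an unadjusted p under 0.05. Of the 1019 other receptors 45 and 73 passed that unadjusted limit, and of all 19505 genes 1241 and 1472. Of all genes 0.0103% and 0.0256% were called, and of the other receptors 0% and 0.196%. Olfr1495 had the smallest p on 14 arrays. It averaged 4.18 ± 0.26 in odor mice (SD, n = 4) and 5.23 ± 0.62 in vehicle mice without pool 3 (SD, n = 3). Both means lay below the median of the negative controls (5.46). The difference was -1.05 ± 0.27 (SE, adjusted p = 0.317), and it was -2.74 ± 1.49 with pool 3. Olfr1480 (0.93), Olfr1463 (0.76), Olfr1501 (0.52) and Olfr1445 (0.39) had positive differences on 14 arrays, and Olfr1499 (-0.49) and Olfr1450 (-0.54) negative ones, with adjusted p of 0.602 and above. Olfr1459 stood at 0.38 (adjusted p = 0.785).

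The test of whether the fraction difference itself depended on treatment called 0 members on 16 and on 14 arrays. At an unadjusted p under 0.05 it had 8 and 3 of the 61 members. Of the 1019 other receptors 72 and 48 passed that unadjusted limit, and of all 19505 genes 581 and 523. The test called 0.00513% and 0.0103% of all genes, and 0.0981% and 0.196% of the other receptors. Olfr1448 had the smallest p among the members: its fraction difference was -4.08 in odor mice and -2.75 in vehicle mice without pool 3, a difference of -1.32 ± 0.45 (SE, unadjusted p = 0.00988, adjusted p = 1). Olfr1480 (-1.19), Olfr1453 (-0.99), Olfr1443 (-0.75) and Olfr1459 (-0.66) were further below 0, and Olfr1450 (1.03) and Olfr1495 (0.88) above it. The median standard error over the members was 0.45 on the log2 scale.

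The mean of both fractions of a pool does not depend on which of its libraries is which fraction, so exchanged labels within a pool leave it as it is. Over 8 pools limma called 0 of 61 members between odor and vehicle, and also 0 without vehicle pool 3. At an unadjusted p under 0.05 there were 3 and 2 members. Of the 1019 other receptors 79 and 107 passed that unadjusted limit, and of all 19505 genes 1402 and 1827. Called were 0.0103% of all genes in both fits and 0% of the other receptors. Olfr1495 and Olfr1434 had the smallest p of the 61 members. Olfr1495 had pool means of 7.73, 7.85, 7.78 and 7.71 in odor mice against 8.11, 8.89, 8.49 and 8.15 in vehicle mice. The difference was -0.64 ± 0.17 (SE, adjusted p = 0.492). On 14 arrays Olfr1495 differed between treatments by -0.18 in titled GFP+ and by -1.05 in titled GFP-, where both its means lay below the negative control median (5.46). Olfr1434 had 6.40, 6.71, 6.48 and 6.83 in odor mice against 5.81, 6.37, 6.03 and 5.99 in vehicle mice. Its difference was 0.56 ± 0.15 (SE, adjusted p = 0.492). Olfr1419 was next at -0.39 ± 0.16, and Olfr1501 (0.27), Olfr1461 (0.35), Olfr1445 (0.20) and Olfr1437 (0.47) were positive, with adjusted p of 0.553 and above in both fits.

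**Figure D5:**
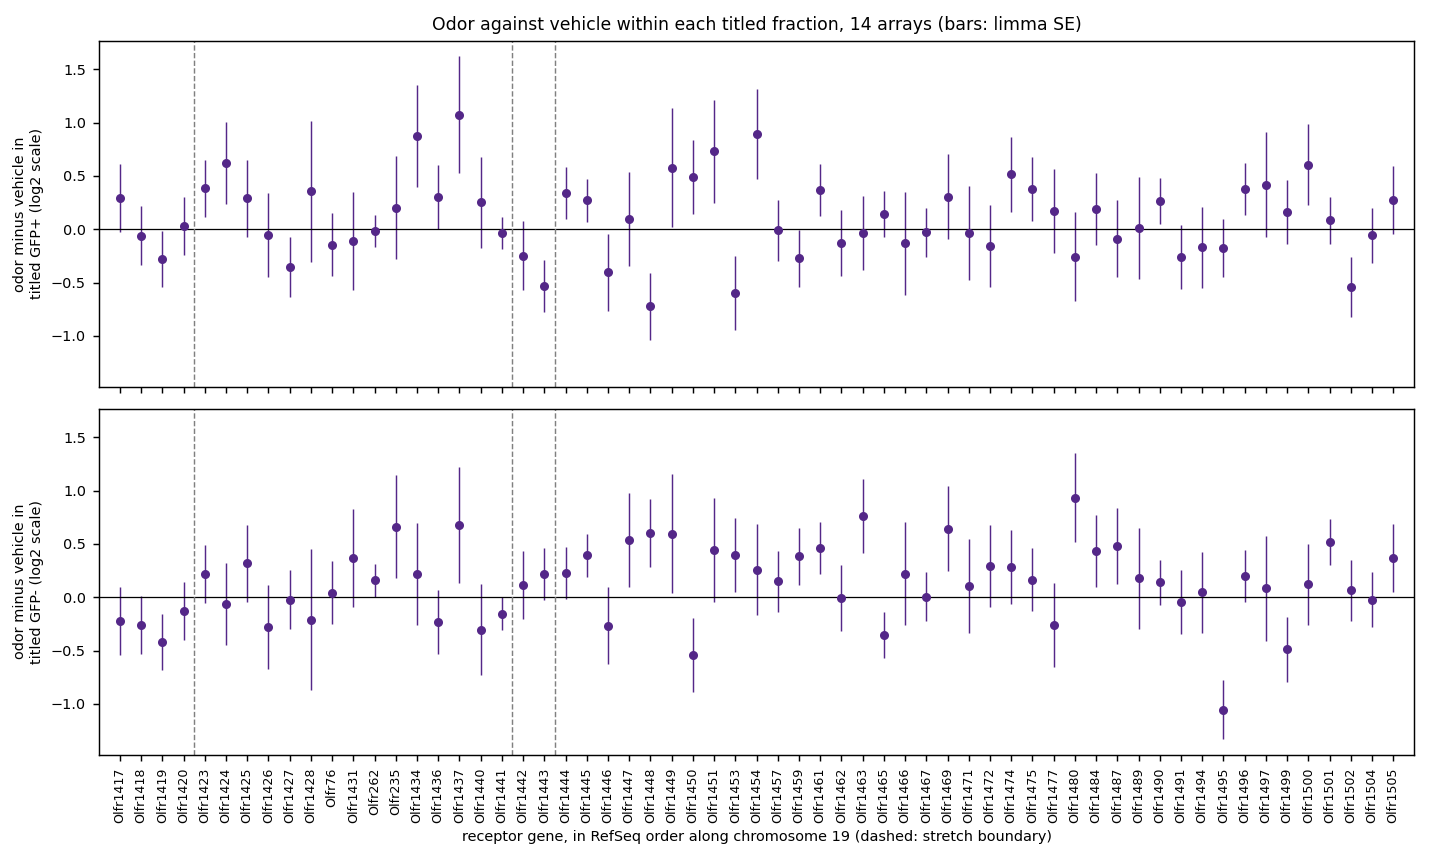
Odor minus vehicle difference (log2 scale, vertical axes) of each of the 61 receptors in titled GFP+ (upper panel) and titled GFP- (lower panel) on 14 arrays, in RefSeq gene order. Points are limma estimates and bars their standard errors. None was called. The most negative value is Olfr1495 in titled GFP- (-1.05), where its mean in either treatment lay below the negative control median (5.46).

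Olfr1434 was also read in its separate libraries. It measured 8.36, 8.79, 9.26 and 9.44 in odor titled GFP+ against 4.43, 4.63, 3.70 and 4.22 in odor titled GFP-. Vehicle mice had 6.80, 8.50, 3.09 and 8.96 in titled GFP+ and 4.82, 4.25, 8.96 and 3.02 in titled GFP-. Within titled GFP+ the odor libraries overlapped those of vehicle pools 2 and 4, and the 14-array difference of 0.88 ± 0.48 (SE) was not called.

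Other genes of the pathway were read beside the receptors on 14 arrays. Of 15 genes of receptor trafficking and transduction, 3 were called lower in titled GFP+ of odor mice and 0 higher: Pde1c (-0.69), a phosphodiesterase, Ano2 (-0.51), the chloride channel of the cilia, and Slc24a4 (-0.56), a sodium, potassium and calcium exchanger that ends the response. In vehicle mice 2 were called, both lower. On 16 arrays the same list had 3 called lower in odor mice and 0 in vehicle mice. None of 11 genes linked to receptor choice, Lhx2, Ldb1, Emx2 and the Ebf genes among them, was called in either treatment. All 4 genes of an activity list were called lower in titled GFP+ of both treatments, S100a5 by -1.16 and Pcp4l1 by -1.82 in odor mice, and on 16 arrays 1 of the 4, Pcp4l1, was called in odor mice and 0 in vehicle mice. The median difference over the pathway list was -0.23 in odor mice, that of the choice list -0.07 and that of all genes -0.08.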

How the data were processed

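The authors deposited 1 table of log2 values. The submitters' processing notes name Affymetrix Expression Console for it; version, summarization method and build were not given in the sources used here. Of 28846 probe sets, 19572 had 1 gene symbol; for 55 genes with several, the one with the highest mean over 16 arrays was taken. The deposited log2 values ran from 1.69 to 19.4, with array medians of 6.13 to 6.45; the top lies above a scanner's usual log2 range, so differences are not given as folds. Arrays have no read depth, and their number limits the precision.

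Groups followed the titles. limma 3.58.1 (R 4.3.3) was fitted across all 19505 genes with 1 mean per group, no block, two-sided, Benjamini-Hochberg adjusted; "called" means an adjusted p under 0.05. The pool comparison used the mean of the 2 fractions. Both fractions of a pool are from the same mice, so blocked values are given where they change a count; the correlation of the 2 fractions' deviations was 0.127 to 0.253 in odor pools and -0.754 to -0.0645 in vehicle pools, or -0.022 to 0.287 in vehicle pools 1, 2 and 4 with pool 3 left out. In the unblocked fits the P-values measure the spread between libraries within the 4 groups, with the variance shared over all groups. The 2 fractions of a pool count there as independent. Only in the comparison of pool means do the P-values measure the spread between pools.

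Members, lists, the omission of vehicle pool 3 and the tests were chosen with earlier results of these data known. Named were the 5 highest and lowest means, the 8 largest called differences each way per fraction comparison, the 5 smallest p elsewhere and Olfr1440. A part of the rule on near-identical proteins could not be applied, since no protein table was used here; window identity (Biopython 1.88) stood in its place. Alternatives were centring, quantile normalization, a filter on low genes, mean of probe sets, trend and robust eBayes, blocks and leaving out libraries. The fit was tested on simulated data.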

Additional observations from a re-analysis of the deposited data

Results flagged for a closer look

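Each of the 9 receptors given by library was checked within each group of 4 for a library whose gap to the nearest of the others passed Dixon's critical share of the group's range. Among the 36 groups 8 were marked. Chance marks about 1 in 20 independent groups, but the 9 receptors share the same libraries, so the 36 groups are not independent. Of the 8, 6 were libraries of vehicle replicate 3. Most of the 9 receptors were taken for their large fraction differences, with the turned values of vehicle replicate 3 already known. Marks in that replicate were thus largely built in, and the count of 8 cannot be set against chance. In vehicle titled GFP+ replicate 3, Olfr1495 was 5.01, Olfr1447 6.18 and Olfr1446 4.26, where the other vehicle libraries titled GFP+ were at 11.19 or above, and Olfr1463 was 12.60, where the others lay between 8.45 and 8.89. In vehicle titled GFP- replicate 3, Olfr1495 was 11.97 and Olfr1463 8.84, against at most 5.93 and at least 11.89 in the others. The remaining 2 were Olfr1463 at 9.67 in odor titled GFP+ replicate 4 (the others 8.23 to 8.46) and Olfr1440 at 5.97 in odor titled GFP- replicate 4 (the others 7.51 to 7.82).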

How the results depend on the processing

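In odor mice the 31 calls between fractions became 42 on 14 arrays, 0 with the pool of mice as a replicate block and 43 with that replicate block on 14 arrays. Leaving out 1 library gave 0 to 38 calls on 16 arrays and 38 to 44 on 14. Centring arrays on their medians moved the median difference of all genes to -0.43, against -0.08 as deposited, and gave 41 calls (21 higher, 20 lower) on 16 arrays and 49 (24 higher, 25 lower) on 14. The other alternatives on 16 arrays gave 22 to 32 calls; over all genes 896 were called with trend and robust variances, 2 with the block, 5741 after centring, 10078 after centring on 14 arrays and 1359 as deposited. In vehicle mice 0 calls became 40 on 14 arrays, 40 there with the replicate block, 40 after quantile normalization and 46 after centring (23 higher, 23 lower, against 24 and 16 as deposited), with 2180 of all genes called on 14 arrays and 8397 there after centring. Single libraries left out gave 0 to 17 calls on 16 arrays, where only vehicle replicate 3 made any (2 without its titled GFP- and 17 without its titled GFP+ library), and 36, 37, 38, 39, 40 or 41 on 14. On 14 arrays 38 of 42 odor calls and 34 of 40 vehicle calls held in all 14 single omissions and 3 other settings, with 0 changes of direction. The 4 odor against vehicle comparisons kept 0 member calls in every alternative run, among them a replicate block on the number that odor and vehicle pools share, which is only a number. Named values that changed sign were Olfr1454 in titled GFP+ (-0.17 without vehicle titled GFP+ replicate 1, up to 0.89 without replicate 3) and Olfr1437 in the pool mean (-0.00714 without odor pool 3, up to 0.88 without vehicle pool 3); the cause was not tested. The 14-array repeats with centring, quantile normalization and single omissions were added after the data were seen. Control probe sets that reached far into the range of the receptors limit what can be said of dim members.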
